A study of Mus musculus with 150 samples.

Results

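Rasgrp1, Lox, Acpp, Fxyd6, Tmem45b and Tmem72 are 6 of the 54082 genes in the count table of 150 single mouse somatosensory neurons. They were chosen from values of these same libraries, because their CPM (estimated counts per 1000000 counts of a cell's total) was high in neurons with Nefh under 500 CPM and Tafa4 at or above 100 CPM. All 6 were in the table and are described below. The neurons came from CD1 mice of Charles River and carry the label of the skin they served: 45 were hairy and, apart from 1 cell with the 2 labels together, the rest glabrous. Mice of postnatal day 5 gave all cells but 33, which came from day 4 (litters K and P_Q), out of 10 litters in all. The labels name no allele, agent or sex and do not say how the skin of a neuron was determined, and several litter names (A_B, C_D, E_F_G, P_Q) join letters, so that such a unit may hold more than 1 litter.

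Low-threshold touch neurons with unmyelinated C fibres innervate hairy skin and respond to gentle stroking. In mouse dorsal root ganglia they are known for Tafa4, a secreted chemokine-like protein, for the vesicular glutamate transporter Slc17a8, for tyrosine hydroxylase (Th) at later ages, and for Runx1, a transcription factor they share with the Mrgprd-positive non-peptidergic nociceptors. They contain little Nefh, the heavy neurofilament chain of thick, myelinated A fibres. Calca encodes the peptide CGRP of peptidergic nociceptors. Of the 6 genes, Rasgrp1 encodes a Ras activator that responds to diacylglycerol and calcium. Acpp encodes prostatic acid phosphatase, an ectoenzyme that can form adenosine from AMP, and Lox encodes lysyl oxidase, a secreted enzyme that crosslinks collagen and elastin. Fxyd6 encodes a small regulator of the sodium pump. Tmem45b and Tmem72 encode membrane proteins, of which Tmem45b has been linked to mechanical pain hypersensitivity in mice.

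The genes are protein-coding and lie apart in the mouse genome (mm10, GENCODE vM21): Rasgrp1 at chr2:117279993-117343001 on the minus strand, Tmem72 at chr6:116679063-116716913 (minus), Tmem45b at chr9:31426196-31464462 (minus), Fxyd6 at chr9:45370185-45396159 (plus) and Acpp at chr9:104288251-104337748 (minus). An antisense gene overlaps Lox, whose position is given with its values, and a pseudogene, an unclassified transcript and a noncoding RNA of the other strand overlap Tmem45b. No source used here says whether the counting used strand, so reads of overlapping genes cannot be told apart for Lox and Tmem45b. Promoter sequences from RefSeq (GRCm38.p6) are printed for 4 of the 6 genes. No promoter of Tmem45b was available, and that of Lox is not printed here. Each printed sequence runs 5′ to 3′ on the gene's strand up to the last base before any GENCODE exon, with TAATTG in capitals.
Rasgrp1, chr2:117343002-117343127: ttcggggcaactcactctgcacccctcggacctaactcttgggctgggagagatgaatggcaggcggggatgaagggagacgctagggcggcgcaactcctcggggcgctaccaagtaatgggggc
Acpp, chr9:104337749-104337972: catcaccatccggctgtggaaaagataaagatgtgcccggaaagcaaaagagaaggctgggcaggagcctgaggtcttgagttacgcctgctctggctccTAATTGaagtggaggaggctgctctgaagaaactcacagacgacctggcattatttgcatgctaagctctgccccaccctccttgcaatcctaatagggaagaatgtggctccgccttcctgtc
Fxyd6, chr9:45369935-45370184: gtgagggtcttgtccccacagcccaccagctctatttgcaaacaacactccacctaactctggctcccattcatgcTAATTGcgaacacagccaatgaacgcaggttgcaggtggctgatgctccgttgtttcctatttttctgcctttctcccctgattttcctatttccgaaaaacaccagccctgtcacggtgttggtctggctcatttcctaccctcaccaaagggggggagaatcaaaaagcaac
Tmem72, chr6:116716914-116717008: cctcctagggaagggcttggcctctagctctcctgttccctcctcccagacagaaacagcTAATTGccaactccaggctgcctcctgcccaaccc

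Motifs were searched on both strands in the 250 bases before each RefSeq start, and overlapping matches were allowed. The RUNX core TGTGGT occurred in none of the 4 promoters and in 14.1% of 32851 promoters of the same length. Neither TATAAA (12.4% of all promoters) nor TAATTA, a core bound by many homeodomain proteins (4.84%), occurred in the 4. The related core TAATTG occurred in 3 of the 4 printed, Acpp, Fxyd6 and Tmem72, against 7.17% of all promoters. The Rasgrp1 promoter did not hold it. No promoter of Tmem45b was available to search, and that of Lox is not reported here. It was picked after the sequences had been read, so its share is a description without a test. A match is a run of letters and not a shown binding site.

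The Tafa4-positive Nefh-low class held 20 of the 150 neurons, 14 hairy and 6 glabrous, from 8 litters. The remaining 130 were sorted by the same kind of threshold. They comprised 6 Mrgprd-positive cells (at least 100 CPM), 12 Calca-positive cells (at least 500 CPM, Mrgprd under 100), 8 other Nefh-low cells and, as all that remained, the Nefh-high cells. Median totals were 721992 counts per cell in the class and between 632026 and 773054 in the other 4 groups, so counting depth was similar. Detected genes had medians of 13534.5 in the class and 14356.5 in Nefh-high cells, and 6 cells, all outside the class, had fewer than 10000. Of the 9 markers listed for C-fibre touch neurons, 7 had class medians of 41.3 CPM or more, among them Zfp521 (177), P2ry1 (206), Gfra2 (165) and Runx1 (147.2), with Tafa4 at 869 by construction. Slc17a8 and Th were close to 0, with class medians of 2.1 and 4.9 CPM and 2 and 6 of 20 cells at 10 CPM or more. For that reason the class is named here by its thresholds.

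RNA of other cells was present in the class. Summed fibroblast markers (6 genes, all listed genes found in the table) ran between 0 and 11030 CPM with a median of 337 in the class, against a median of 154 in Nefh-high cells. The 6 Schwann cell markers had medians of 4410 CPM in the class and 1468 CPM in Nefh-high cells, with Egr2 at a median of 0 in both. Of the class, 11 of 20 cells were among the 25% of all cells with most fibroblast, Schwann and satellite glia RNA.

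The ability of a gene to separate the class is given as the AUC, the probability that a class cell lies above a cell outside it, where 0.5 is no separation. The class contrast chose the genes, so these values carry no test. AUC was at least 0.9 against all other cells for 4 of the 6 genes, and the share of all 15620 genes measured at that AUC was 1.41%. Against the 26 other Nefh-low cells it was also 4 of the 6, with a background of 1.33%. Without the 25% of all cells with most non-neuronal RNA, 9 class cells remained and 2 of the 6 passed 0.9 within Nefh-low cells, with a background of 1.7% for these cells. Counted together at 10 CPM or more, all 6 genes were present in 14 of 20 class cells and in 0 of the 130 others, which allows a share of up to 2.31% of such cells by counting error. No cell outside the class had more than 5 of the 6, and 4 cells had 5.

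**Figure D1:**
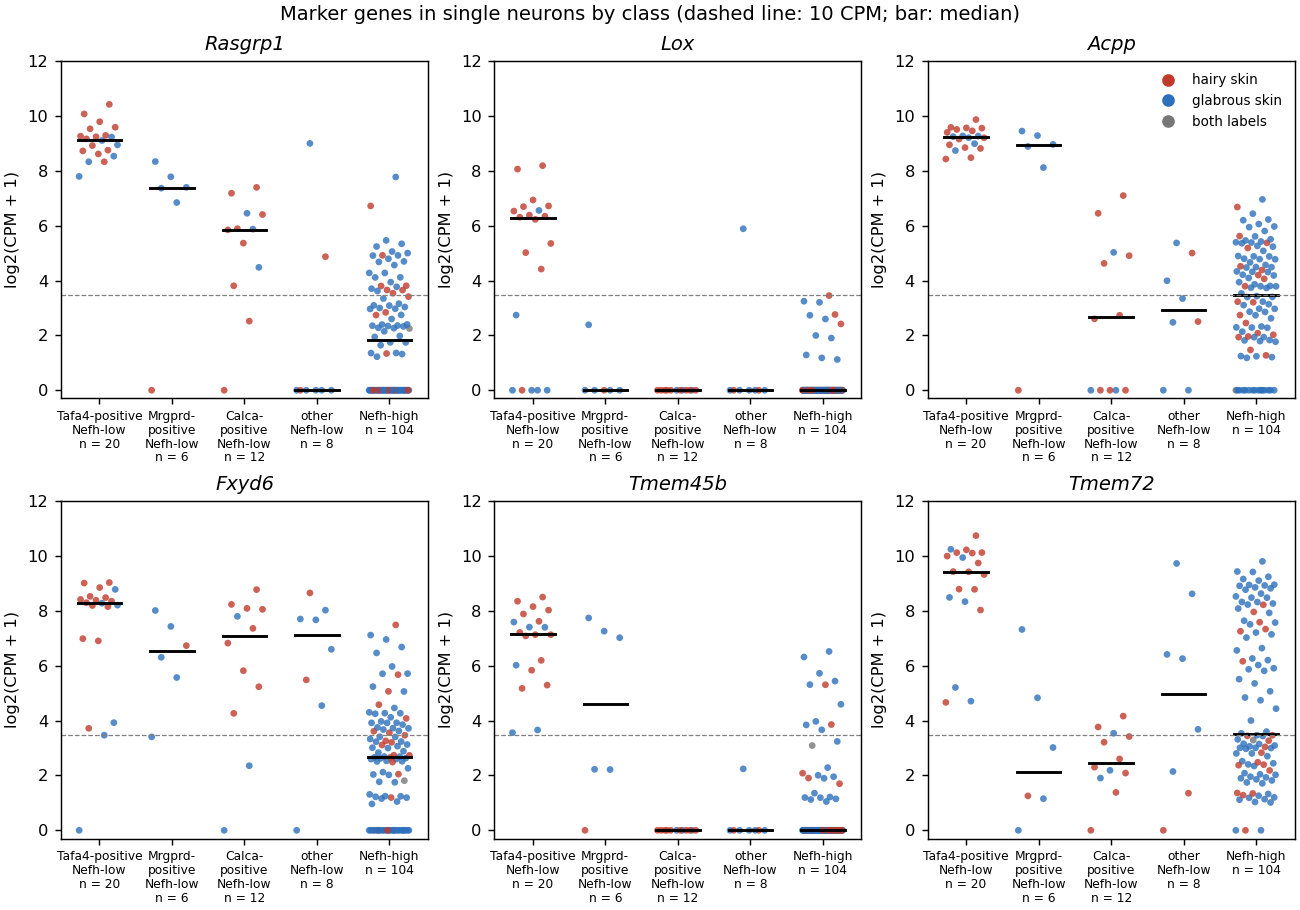
Level of each of the 6 genes in every neuron, as log2(CPM + 1), in the Tafa4-positive Nefh-low class (left) and the 4 other groups, with the median as a bar, a dashed line at 10 CPM and colours for skin type. All 20 class cells sit above 10 CPM for Rasgrp1, Acpp, Tmem45b and Tmem72, whereas Nefh-high cells spread widely for Tmem72 and lie at or near 0 for Lox.

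By AUC against all other cells, Rasgrp1 separated the class best of the 6. It lay between 221 and 1371 CPM in the 20 class cells with a median of 561 CPM, and between 0 and 511 CPM in the 130 other cells with a median of 3.8 CPM. All 20 class cells reached 50 CPM against 15 of the others. The AUC was 0.995 against all other cells, the seventh highest rank among genes measured, and 0.977 against Nefh-low cells alone. Intermediate levels were found in Mrgprd-positive cells (median 166 CPM, 5 of 6 cells at 10 CPM or more) and in Calca-positive cells (57.1 CPM, 10 of 12), against 2.6 CPM in Nefh-high cells (27 cells, 25.96%). The highest value outside the class, 511 CPM, belonged to a glabrous cell of litter L with only 4957 detected genes. In all 8 litters with class cells, the summed class cells were above the other cells of the litter, by a median of 4.11 on the scale of log2(CPM + 1).

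Acpp marked the class together with the Mrgprd-positive cells. Its level was 344 to 933 CPM in the class (median 598) and 485 CPM in the median of Mrgprd-positive cells, 5 of which lay between 277 and 698 CPM. The sixth, a hairy cell with 4360 detected genes, had no Acpp count. Medians were 5.4 CPM in Calca-positive and 10.2 CPM in Nefh-high cells, whose highest value of 123.3 CPM was under the lowest of the class. The AUC was accordingly 1 against both of these groups and 0.683 against the Mrgprd-positive cells.

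Tmem45b was likewise shared with Mrgprd-positive cells. The class had 10.8 to 362 CPM (median 143.4). The Mrgprd-positive cells split, with 3 at 128.9 to 213 CPM and 3 at 0 to 3.7 CPM. None of 12 Calca-positive cells had a Tmem45b count, which allows a share of up to 25% of cells by counting error, and in Nefh-high cells the median was 0, with 11 cells (10.6%) at 10 CPM or more. Its AUC was 0.972 against all other cells and 0.725 against the Mrgprd-positive cells.

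Lox (chr18:52516067-52529867, minus strand, mm10) was found in fewer cells outside the class than any other of the 6 genes, and it was also missing from part of the class. At 10 CPM or more it was found in 14 of 20 class cells (70%, exact Clopper-Pearson 95% interval 45.7 to 88.1) and in 1 of 130 others (0.769%, 0.0195 to 4.21). No Calca-positive or Nefh-high cell reached 10 CPM. The single exception, at 58.2 CPM, was a glabrous cell of litter I with 34117 CPM of non-neuronal markers. Among the 13 cells outside the class with most fibroblast RNA (1502 CPM or more), the median Lox level was 0. The 7 Mrgprd-negative class cells with least fibroblast RNA (up to 673 CPM) had a median Lox level of 93.01 CPM (39.8 to 290.4). Without the 25% of all cells with most non-neuronal RNA, however, Lox was found in 44.4% of the 9 class cells left. Of these, the 5 Mrgprd-positive cells had no Lox count and the 4 Mrgprd-negative cells had 39.8 to 290.4 CPM.

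Fxyd6 was high in the class (median 312 CPM, 19 of 20 cells at 10 CPM or more) but shared with every other Nefh-low group. The medians were 91.8 CPM in Mrgprd-positive, 137.99 CPM in Calca-positive and 149.5 CPM in other Nefh-low cells, against 5.3 CPM in Nefh-high cells. The AUC was 0.879 against all other cells and 0.735 within Nefh-low cells. Across the 130 cells outside the class, Fxyd6 moved with the summed Schwann markers (Spearman's rho 0.655), while across the 14 Mrgprd-negative class cells rho was -0.103. These are descriptions over cells that share litters and plates. The 7 of those class cells with least Schwann RNA, still up to 5052 CPM, had a Fxyd6 median of 327 CPM. In the 13 cells outside the class with most (5389 CPM or more) it was 105.4 CPM. These groups nearly met in Schwann RNA, and its part in the Fxyd6 level was not tested.

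Tmem72 had a median of 689 CPM in the class, against 4.2 CPM in Mrgprd-positive and 4.5 CPM in Calca-positive cells. In Nefh-high cells it was divided: the median was 10.3 CPM, yet 43 cells had at least 50 CPM and the highest reached 893 CPM. The AUC was 0.946 within Nefh-low cells and 0.890 against Nefh-high cells.

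Cells at the thresholds are given as a description. The 2 class cells with least Tafa4 (139.4 and 188 CPM) had 1203 and 756 CPM Mrgprd, no Lox, 10.1 and 12.2 CPM Fxyd6, and 321 and 391 CPM Rasgrp1. Just outside, a Nefh-low cell with 83.5 CPM Tafa4 and 1127 CPM Mrgprd had 322 CPM Rasgrp1 and 498 CPM Acpp, while one with 58.3 CPM Tafa4 had 168 and 277 CPM of these genes. On the Nefh side, a glabrous cell with 1088 CPM Nefh and 134.3 CPM Tafa4 had 218 CPM Rasgrp1, 123.3 CPM Acpp and 319 CPM Tmem72. Both other Nefh-high cells with 100 CPM Tafa4 or more had at most 12.7 CPM Rasgrp1 and 1.3 CPM Acpp.

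Divided at 100 CPM of Mrgprd, a split chosen after the values were seen, the class fell into 6 Mrgprd-positive cells (4 glabrous, 2 hairy) and 14 Mrgprd-negative cells (2 glabrous, 12 hairy). Rasgrp1, Acpp and Tmem45b were found in both. Acpp had medians of 598 CPM in the Mrgprd-positive and 602 CPM in the Mrgprd-negative cells, and Tmem45b 169 and 137.1 CPM. Rasgrp1 had medians of 380.3 CPM (221 to 739) in the Mrgprd-positive and 602 CPM (320.5 to 1371) in the Mrgprd-negative cells, with overlapping ranges. The 8 listed markers of non-peptidergic nociceptors, Mrgprd among them, summed to a median of 2810 CPM in the Mrgprd-positive and 688 CPM in the Mrgprd-negative class cells, and to 2127 CPM in the Mrgprd-positive cells outside the class. The 9 C-fibre touch markers summed to medians of 658 CPM in the Mrgprd-positive and 1963 CPM in the Mrgprd-negative class cells.

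The other 3 genes had lower medians in the Mrgprd-positive cells. Lox was at 0 in 5 of these 6 cells and at 20.4 CPM in the sixth, against 5.7 to 290.4 CPM (median 86.9) in the Mrgprd-negative cells. Fxyd6 was at 14.2 CPM or less in 4 of the 6, with 295 and 460.5 CPM in the other 2, against 118.9 to 523 CPM in the Mrgprd-negative cells. Tmem72 ran between 24.4 and 442 CPM (median 179) in the Mrgprd-positive cells and between 260.5 and 1713 CPM (median 1003) in the Mrgprd-negative ones. Of the Mrgprd-positive cells, 3 had 35.9 CPM or less, and 3 lay inside the range of the Mrgprd-negative cells. Tafa4 itself was 139.4 to 290.2 CPM in 5 of the Mrgprd-positive cells. The sixth, a hairy cell of litter E_F_G with 313 CPM Mrgprd and 878 CPM Tafa4, carried all 6 genes.

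All 6 Mrgprd-positive class cells lay on plate 1, and 13 of 14 Mrgprd-negative ones on plate 2, so that Mrgprd and plate can hardly be told apart in the class. The Mrgprd-negative cell on plate 1, a glabrous cell of litter I, had 93.01 CPM Lox, 310.0 CPM Fxyd6 and 984 CPM Tmem72. Schwann markers had medians of 2203 CPM in the Mrgprd-positive and 5285 CPM in the Mrgprd-negative cells, and fibroblast markers 163 and 896 CPM. Their part in the split was not tested. Without the Mrgprd-positive cells, AUC against all other cells was 0.996 for Lox, 0.973 for Fxyd6 and 0.973 for Tmem72, and all 6 genes passed 0.9, against 2.02% of all genes for the same cells. The cells left out were those that lack these genes most often, so this count is a description.

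**Figure D2:**
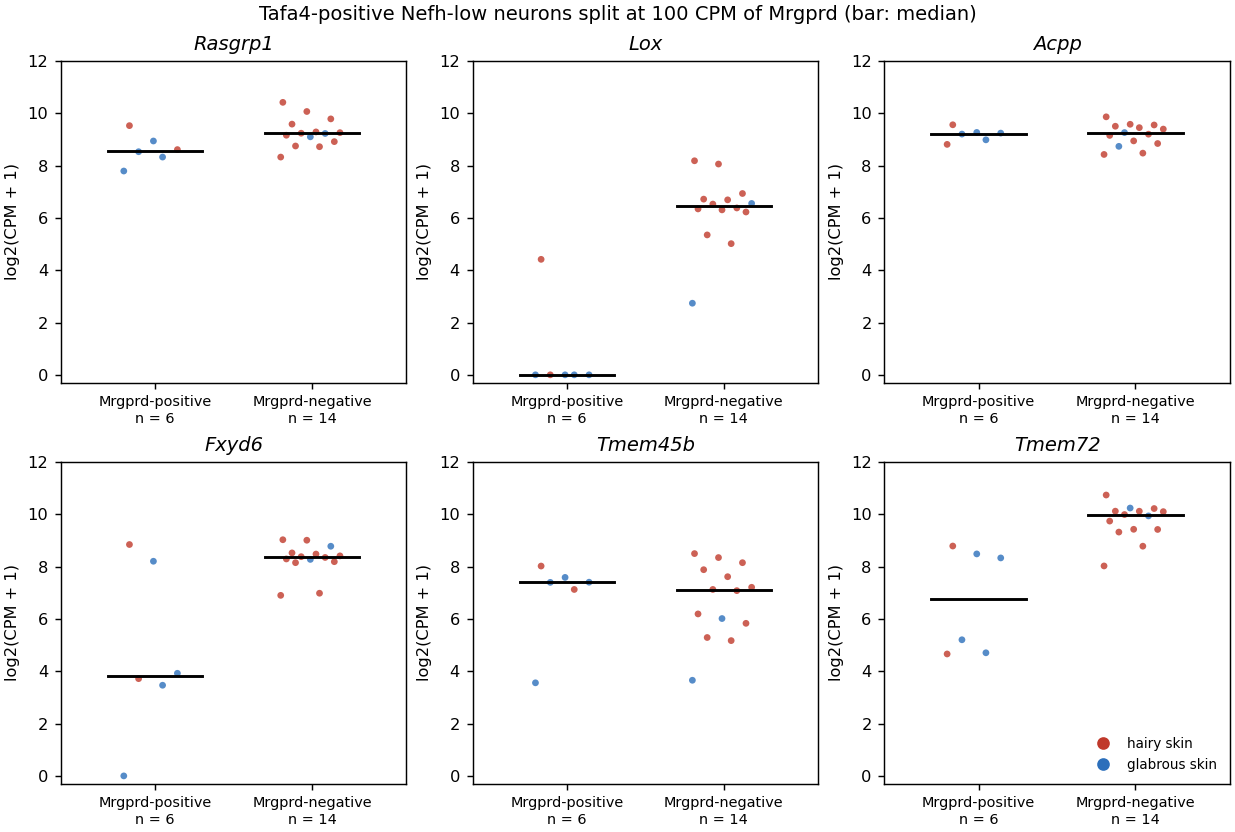
Level of each gene, as log2(CPM + 1), in the 6 Mrgprd-positive (left) and 14 Mrgprd-negative (right) cells of the class, with medians as bars and skin type as colour. Acpp and Tmem45b lie at like levels on both sides, whereas Lox is at 0 in 5 of the 6 Mrgprd-positive cells.

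Calca was rarely shared with the class: 1 of its 20 cells, a hairy cell of litter L, had 3675 CPM of Calca, together with 573 CPM Rasgrp1, 766 CPM Acpp, 80.3 CPM Lox and 687 CPM Tmem72. Of the 51 cells with 500 CPM Calca or more in all groups, 24 had Rasgrp1 at 10 CPM or more (47.1%), 35 had Acpp (68.6%), 28 Fxyd6 (54.9%), 11 Tmem72 (21.6%), 6 Tmem45b (11.8%) and 1 Lox (1.96%). Of the 15 cells with 100 CPM Mrgprd or more, 14 had Rasgrp1 and Acpp each (93.3%), 12 Fxyd6 and Tmem45b each (80%), 9 Tmem72 (60%) and 1 Lox (6.67%). These 15 include the 6 Mrgprd-positive cells of the class for which the genes were chosen, and all 6 had Tmem72 at 10 CPM or more. Read the other way, Mrgprd-positive cells made up 35.3% of the 34 cells with Tmem45b and 10.7% of the 84 cells with Tmem72. They were 15 of all 150 cells.

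Among Nefh-high cells, the A-fibre candidates, 19 were hairy and 84 glabrous. None of the 6 genes was shown to be higher in the hairy ones. At 10 CPM or more, Rasgrp1 was found in 7 of 19 hairy cells (36.8%, exact 95% interval 16.3 to 61.6) and 20 of 84 glabrous cells (23.8%, 15.2 to 34.3). Acpp was found in 9 of 19 (47.4%) and 43 of 84 (51.2%), Fxyd6 in 8 of 19 (42.1%) and 25 of 84 (29.8%), and Tmem45b in 2 of 19 (10.53%) and 9 of 84 (10.7%). Lox reached 10 CPM in neither. Tmem72 was at 10 CPM or more in 7 of 19 hairy cells (36.8%) and 47 of 84 glabrous cells (55.95%). These intervals treat cells as independent and cover counting error only.

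A single hairy Nefh-high cell stood apart. This cell of litter M had 104.3 CPM Rasgrp1, 101.5 CPM Acpp and 38.6 CPM Tmem45b, together with 242 CPM Mrgprd and 2962 CPM Nefh. The other 18 hairy Nefh-high cells had at most 29.2 CPM Rasgrp1.

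Summed per litter, hairy against glabrous Nefh-high cells could be compared within 7 litters, each holding 1 or more cells of either skin. Over all genes edgeR's quasi-likelihood test with the litter as a block called 0 of 12087 (0%), and 729 genes had an unadjusted p under 0.05. DESeq2 called 89 genes, none of them a member. Of the 6 genes 4 passed the filter on low counts, and 0 were called. Rasgrp1 had 0 to 21.002 CPM in hairy sums (median 0.48) and 2.6 to 26.3 CPM in glabrous sums (median 10.3), a log2 change of -1.38 ± 1.05 (SE, n = 7 litters, edgeR adjusted p = 0.880). The ranges overlapped. Acpp had 2.9 to 31.8 CPM in hairy and 11.47 to 29.96 CPM in glabrous sums (-0.97 ± 0.47, edgeR adjusted p = 0.820). Fxyd6 changed by 0.06 ± 0.47 and Tmem72 by -0.89 ± 0.98 on the log2 scale, with edgeR adjusted p of 0.991 and 0.911. Lox and Tmem45b did not pass the filter. On plate 1 (4 litters) Fxyd6 changed by -0.87 and Tmem72 by 0.34, and on plate 2 (3 litters) by 1.01 and -1.87, so their direction was not stable. Litter K was counted with plate 2, although part of its glabrous cells lay on plate 1, so the plates were not fully separated.

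Within Nefh-high cells, Tmem72 was also described by receptor gene, in a split chosen after the values were seen. Cells were grouped by whichever of Ret, Ntrk2 and Ntrk3 was highest in CPM, a scale not adjusted for gene length here. These genes encode the receptors that mark the main kinds of myelinated touch neurons. Where Ret was highest, the Tmem72 median was 6.7 CPM in 16 hairy and 7.0 CPM in 47 glabrous cells. Where Ntrk2 was highest it was 191 CPM in 3 hairy and 357 CPM in 17 glabrous cells, and in the 20 cells with Ntrk3 highest, all glabrous, it was 303 CPM. Of Ret-highest cells, 22 of 64 had 10 CPM or more, against 16 of 20 each in the Ntrk2- and Ntrk3-highest cells. Of the 7 litters that had both kinds, 6 had the higher median in Ntrk2- or Ntrk3-highest cells. The exception was litter A_B, with 2.1 CPM in 2 such cells and 8.6 CPM in 3 Ret-highest cells.

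**Figure D3:**
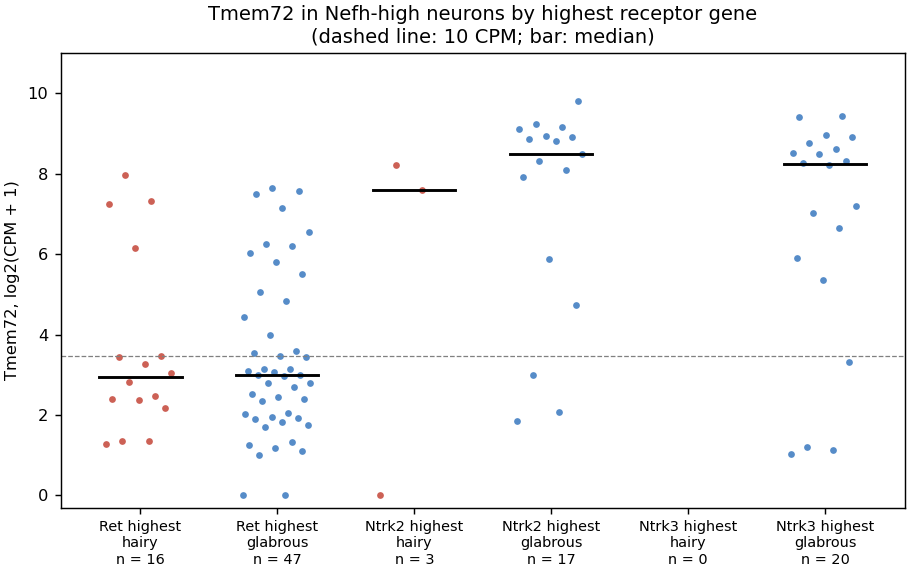
Tmem72 in Nefh-high neurons, as log2(CPM + 1), by the receptor gene with the highest CPM and by skin type, hairy left of glabrous, with medians as bars and a dashed line at 10 CPM. Ret-highest cells of both skins centre near 7 CPM, and glabrous Ntrk2- and Ntrk3-highest cells above 300 CPM.

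Over all neurons, each of the 6 genes had its higher median in hairy skin, where the class made up 14 of 45 cells (31.1%, exact 95% interval 18.2 to 46.6), against 6 glabrous cells (5.77%, 2.15 to 12.1). These intervals treat cells as independent and cover counting error only. Skin also went with plate: plate 1 held 10 hairy and 85 glabrous cells, and plate 2 held 35 and 19. Of the 14 hairy class cells, 12 lay on plate 2, so the share cannot be told apart from plate. In sums over all neurons, more cells of a class and more RNA per cell cannot be told apart. The 6 genes were chosen as high in this class, and its cells are in the sums. A higher level in hairy skin is therefore favoured by the choice of genes, and the values of the members are a description. The contrast was tested in 7 litters with at least 2 cells of each skin. edgeR's quasi-likelihood test called 12 of 12852 genes (0.0934%) and 0 of the 5 members that passed the filter, 4 of which had an unadjusted p under 0.05, as did 1277 of all genes tested (9.94%). The count of 12 was unstable: it was 0 without litter K, O or P_Q, 1 without L, 2 without E_F_G and 7 without H. DESeq2 called 337 of the same 12852 genes, and edgeR without the filter on low counts called 342.

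Rasgrp1 had 21.002 to 474 CPM in hairy sums (median 202) and 2.6 to 161 CPM in glabrous sums (median 32.98), higher in hairy skin in 7 of 7 litters (log2 change 2.75 ± 0.55 SE, edgeR adjusted p = 0.152). Acpp had medians of 202 CPM in hairy and 29.6 CPM in glabrous sums, higher in 7 of 7 litters (2.00 ± 0.45, edgeR adjusted p = 0.177). For Fxyd6 the medians were 156 CPM in hairy and 15.1 CPM in glabrous sums, with 6 of 7 litters higher in hairy skin (2.20 ± 0.49, edgeR adjusted p = 0.177). Tmem45b (2.34 ± 0.83, adjusted p = 0.391, 7 of 7 litters) and Tmem72 (1.06 ± 0.72, adjusted p = 0.681, 6 of 7) were also not called by edgeR. DESeq2 called Rasgrp1 (2.80, adjusted p = 1.01e-06), Acpp (2.02, 0.000102) and Fxyd6 (2.12, 0.000278). edgeR without the filter on low counts called these and Tmem45b (2.34, adjusted p = 0.000399). Both of these fits called many more genes in all than the filtered edgeR fit, as given above, so their member calls depend on the method. The calls concern genes chosen for a class that is in these sums, so they are no independent test. The direction was the same in litters of plate 1 and in those counted with plate 2. The latter include litter K, which had part of its glabrous cells on plate 1. On plate 1 (3 litters) the changes were 2.15 for Rasgrp1, 1.05 for Acpp, 1.32 for Fxyd6, 1.28 for Tmem45b and 0.23 for Tmem72. On plate 2 (4 litters) they were 3.25 for Rasgrp1, 2.78 for Acpp, 2.67 for Fxyd6, 3.27 for Tmem45b and 1.41 for Tmem72. Ranges of the skins overlapped for each gene. Lox, under the filter, had 0 to 59.5 CPM in hairy sums (median 18.5) and 0 to 1.7 CPM in glabrous sums (median 0.17).

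With the class cells left out, 6 litters remained and edgeR called 0 of 12477 genes (0%), with 584 at an unadjusted p under 0.05. Rasgrp1 then had medians of 16.2 CPM in hairy and 13.6 CPM in glabrous sums (log2 change -0.21 ± 1.02, edgeR adjusted p = 0.984), with 3 of 6 litters higher in hairy skin. Acpp changed by -0.25 ± 0.69 and Tmem72 by -1.87 ± 1.26 (edgeR adjusted p = 0.978 and 0.930). DESeq2 called 52 of the same 12477 genes, and edgeR without the filter on low counts called 74. Fxyd6 had medians of 72.1 CPM in hairy and 16.9 CPM in glabrous sums and was higher in hairy skin in 6 of 6 litters (1.55 ± 0.36, edgeR adjusted p = 0.930). It was called by DESeq2 (adjusted p = 0.0125) and by edgeR without the filter (adjusted p = 0.00963). For the other 3 the sign differed between plates. It was positive on plate 1 (2 litters, with Rasgrp1 2.19, Acpp 0.97 and Tmem72 1.35). It was negative on plate 2, with litter K counted there (4 litters, with Rasgrp1 -1.68, Acpp -1.03 and Tmem72 -3.32). Calca-positive cells, 9 of 12 of them hairy, and the Schwann RNA that moved with Fxyd6 outside the class were still in these sums, and their part was not tested.

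**Figure D4:**
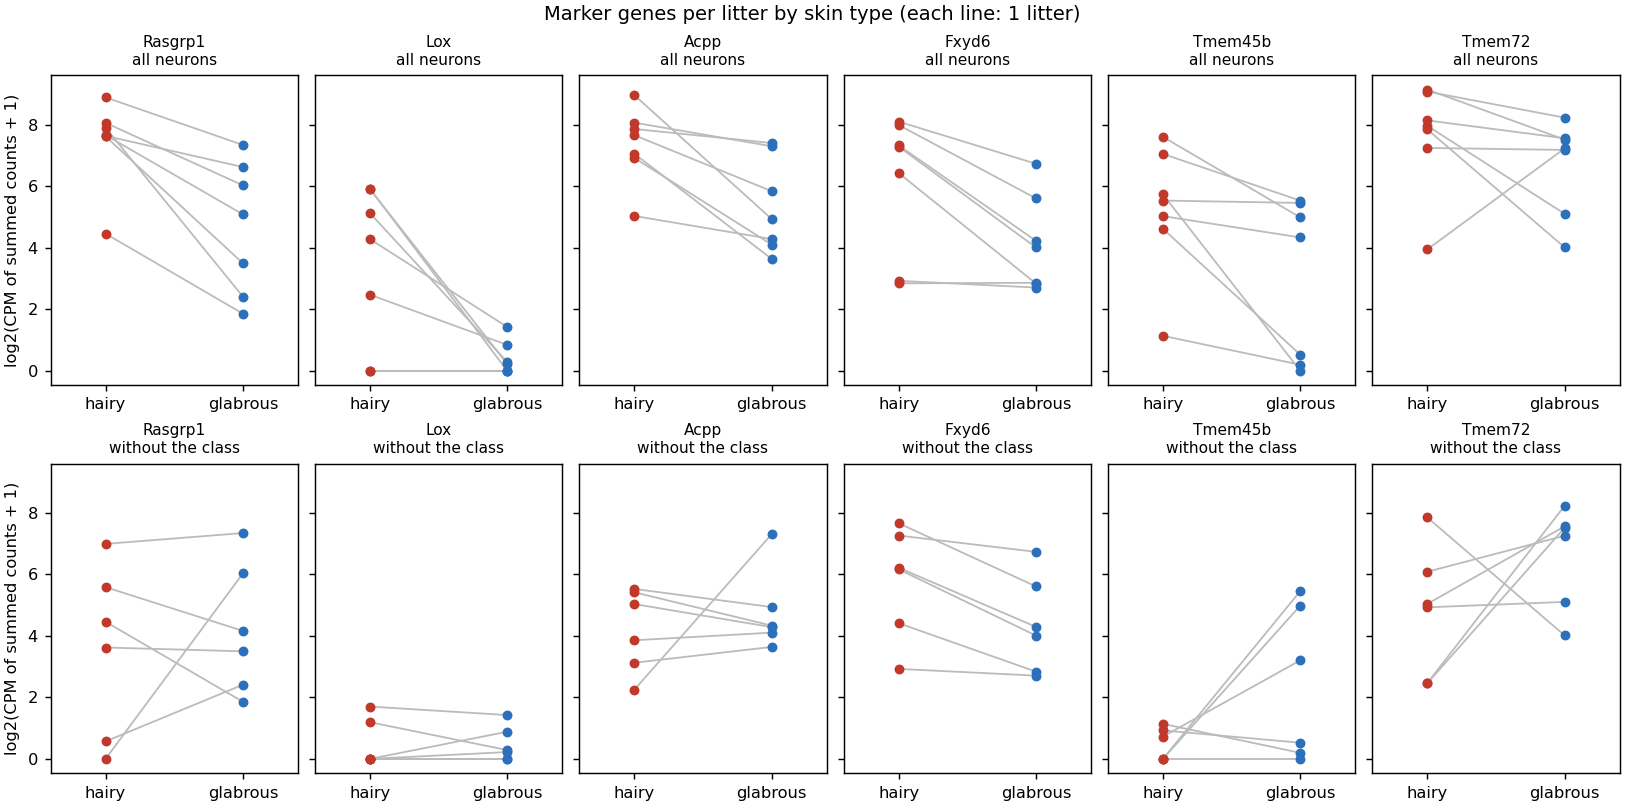
CPM of summed counts per litter, as log2(CPM + 1), in hairy (left) and glabrous (right) neurons joined by litter, for all neurons (top, 7 litters) and without the Tafa4-positive Nefh-low class (bottom, 6 litters). Lines for Rasgrp1, Acpp and Tmem45b run downward in 7 of 7 litters in the top row, whereas in the bottom row Fxyd6 alone does so in 6 of 6. The top row holds the class for which the genes were chosen.

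Of the 9 listed markers of C-fibre touch neurons, 8 were tested over all neurons and 1 passed, Zfp521, a zinc finger gene (log2 change 1.86 ± 0.25, edgeR adjusted p = 0.0465, 7 of 7 litters). Its call was lost in edgeR fits without any 1 of the litters E_F_G, H, K, L, O and P_Q (adjusted p = 0.0746 to 0.173) and without the litter block (0.0961). It was also lost without the 25% of cells with most non-neuronal RNA (log2 change 1.595, adjusted p = 0.450), with single-cell sums admitted (1.26, 0.838), on plate 1 (1.24, 0.997) and on plate 2 (2.30, 0.136), which makes 11 of 16 alternatives. Of the 8, 7 had positive values, with a median of 2.06 beside -0.02 for all genes tested. Tafa4, which defines the class, had medians of 203 CPM in hairy and 6.9 CPM in glabrous sums (4.30 ± 0.66, edgeR adjusted p = 0.0709). Without the class 0 of 8 passed and 3 had positive values.

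Age was compared within the class, between 6 litters of day 5 (16 cells) and 2 litters of day 4 (4 cells). edgeR called 0 of 12566 genes (0%), and 837 had an unadjusted p under 0.05. It called 0 of the 6 members, 2 of which were under that unadjusted limit. DESeq2 called 13 genes, none of them a member. Rasgrp1 had day 5 sums of 442 to 709 CPM (median 473) against 849.9 and 1075 CPM in the day 4 litters. The ages did not overlap, and the log2 change was -0.92 ± 0.22 (SE, edgeR adjusted p = 0.680). Lox had 0 to 99.7 CPM at day 5 (median 40.2) against 149.8 and 266 CPM at day 4, again without overlap (-2.28 ± 0.93, edgeR adjusted p = 0.742). The share of all genes tested whose ages did not overlap was not counted. With 2 litters at day 4, the lack of overlap is therefore a description and not a result about these genes.

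The remaining genes overlapped between ages. Acpp had 479 to 805 CPM at day 5 and 499 and 569.8 CPM at day 4 (log2 change 0.15 ± 0.24). Fxyd6 had 13.2 to 356 CPM at day 5 and 314 and 456 CPM at day 4 (-0.76 ± 0.70). Tmem45b had 11.2 to 325 CPM at day 5 and 103.8 and 236 CPM at day 4 (-0.14 ± 0.81). Tmem72 had 177 to 1157 CPM at day 5 and 1021 and 1167 CPM at day 4 (-0.86 ± 0.57). The edgeR adjusted p was 0.817 or more for each of the 4.

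The day 4 class cells were all hairy, all Mrgprd-negative and all on plate 2, so age cannot be told apart from these features without restricting the cells. Summed satellite glia markers had class medians of 1404 CPM at day 5 and 285 CPM at day 4, and Schwann markers 4113 CPM at day 5 and 4913 CPM at day 4. Their part in the comparison was not tested. Among Mrgprd-negative class cells, 6 litter sums remained, and the log2 change was -0.78 for Rasgrp1 and -1.51 for Lox (edgeR adjusted p = 0.937 and 0.936). In hairy Mrgprd-negative cells, Rasgrp1 had a median of 588 CPM in 8 cells of day 5 (320.5 to 884) and 922 CPM in 4 cells of day 4 (422 to 1371), with overlapping ranges. Over all hairy cells, 6 litters of day 5 and 2 of day 4, edgeR called 0 of 14063 genes (0%), 200 of them at an unadjusted p under 0.05. Changes of the 6 genes there ran between -1.19 (Lox) and 1.00 (Tmem45b), none of them called by edgeR, and DESeq2 called 2 genes, neither of them a member.

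**Figure D5:**
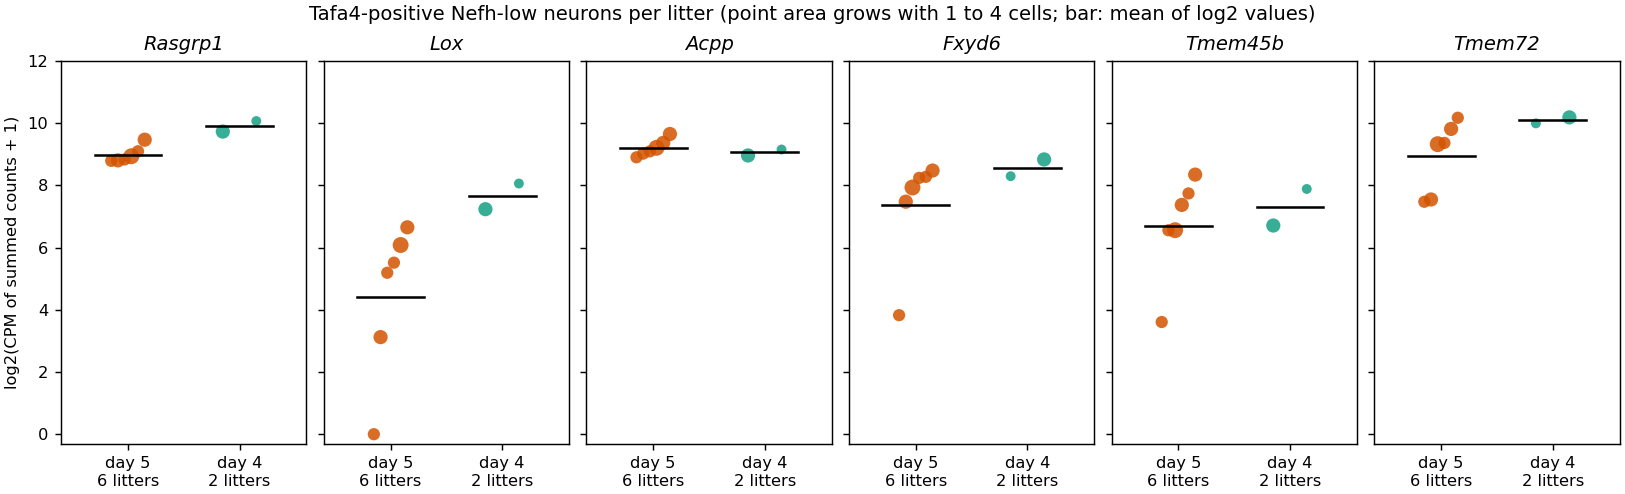
CPM of summed counts of class cells per litter, as log2(CPM + 1), at day 5 (left, 6 litters) and day 4 (right, 2 litters), with point area growing with the number of cells and bars at the mean of the log2 values. For Rasgrp1 and Lox, neither of them called by edgeR, both day 4 litters lie above all 6 day 5 litters. The share of all genes with such a separation was not counted, so it is a description.

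Genes related to the 6 by family or substrate were taken from a list. Of 29 listed relatives, 20 to 24 were tested in each of the 5 comparisons, and 0 were called by edgeR in any of them. Over all neurons, hairy against glabrous, 10 of 22 had positive and 12 negative values, with a median of -0.04. For Rasgrp1, the class had Hras (median 190.5 CPM) and Nras (187), which encode Ras proteins, in 20 of 20 cells each. Neither was particular to the class: the medians of all cells outside it were 235.6 CPM for Hras and 149.8 CPM for Nras. Rasgrp2, a relative of Rasgrp1, had a median of 2.8 CPM in the class, with 3 of 20 cells at 10 CPM or more. It was likewise low in Mrgprd-positive (median 6.0 CPM) and Calca-positive cells (1.8 CPM). The median was 49.5 CPM in other Nefh-low cells and 184 CPM in Nefh-high cells, of which 95 (91.3%) had 10 CPM or more. Rasgrp3 had a median of 0 in every group.

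Nt5e, which encodes the ectonucleotidase CD73 that like the Acpp product forms adenosine, had a median of 74.5 CPM in the class (20 of 20 cells), 45.01 CPM in Mrgprd-positive cells (5 of 6) and 1.9 CPM in Nefh-high cells (7 cells, 6.73%). Adora1, an adenosine receptor gene, had medians of 43.1 CPM in the class (20 of 20 cells), 36.2 CPM in Calca-positive cells (10 of 12), 15.5 CPM in Mrgprd-positive cells (4 of 6) and 18.4 CPM in Nefh-high cells (62.5%). The housekeeping phosphatase gene Acp1 was alike in both (189 and 210.3 CPM).

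Among sodium pump genes, the beta subunit Atp1b1 had medians of 833 CPM in the class, 840 CPM in Mrgprd-positive cells and 1473 CPM in Nefh-high cells. Fxyd7 lay opposite to Fxyd6, with a median of 30.6 CPM in the class and 809 CPM in Nefh-high cells, found in 100% of them. Fxyd2 had medians of 51.9 CPM in the class (20 of 20 cells), 65.03 CPM in Mrgprd-positive cells (6 of 6), 48.6 CPM in Calca-positive cells (12 of 12) and 17.2 CPM in Nefh-high cells (69 cells, 66.3%). Genes of lysyl oxidase substrates differed. Eln, the elastin gene, reached 10 CPM in 0 of 20 class cells and in 62 Nefh-high cells (59.6%). It did so in 0 of 6 Mrgprd-positive, 2 of 12 Calca-positive and 2 of 8 other Nefh-low cells. Col1a1 had a median of 44.95 CPM in the class and 10.19 CPM in Nefh-high cells. Fibroblast RNA, of which Col1a1 is a listed marker, was found in the class. Loxl1 was at 10 CPM or more in 0 of 20 class cells, and Tmem45a, the paralogue of Tmem45b, in 1 of 20.

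The genes most like each member over the 150 cells, by Spearman's rho of CPM among 11871 genes, were Dgkh (0.683), Celf6 and Ldb2 for Rasgrp1, Cd47 (0.699), Vstm5 and Nbl1 for Acpp, and Kcnf1 (0.541), Zfp521 and Rps6ka4 for Lox. They were Gm45941 (0.706), Kcnf1 and Ms4a3 for Tmem45b. For Tmem72 they were Pou4f2 (0.699), Rbms3 and Rarres1. For Fxyd6 they were Mbp (0.718), Cnp (0.688) and Apod (0.683), of which Mbp and Cnp are myelin genes of Schwann cells. Cells share litters and plates, so these are descriptions. Inside the 14 Mrgprd-negative class cells, where Lox and Acpp had a rho of 0.086, the pairs with the highest rho were Rasgrp1 with Lox (0.596), Acpp with Tmem45b (0.556) and Rasgrp1 with Tmem72 (0.525).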

How the data were processed

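RNA of 150 single somatosensory neurons was measured by Smart-seq. Per the submitters' processing notes, FastQC, cutadapt and Salmon were used with mm10. The deposited values are whole-number estimated counts per gene and cell (expected counts); tool versions, annotation, the step to genes and any scaling for transcript length are stated in no source used here, so levels of different genes are not compared, except to group Nefh-high cells by the highest of Ret, Ntrk2 and Ntrk3 in CPM. Totals were 395811 to 1053850 counts per cell (median 734269), and detected genes 4360 to 15865.

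CPM was computed from these counts over each cell's total. Cells were classed by Nefh (500 CPM), Tafa4 (100), Mrgprd (100) and Calca (500), and a gene was called present at 10 CPM. AUC was computed for genes with a mean of at least 1 CPM seen in at least 10 cells. The members and lists were chosen with earlier results of these data known. Named genes are the 6 members, the class-defining genes, 29 listed relatives, the listed markers, and the 3 genes per member with the highest Spearman's rho among genes with a mean of at least 5 CPM in at least 10 cells. Splits by Mrgprd within the class and by receptor gene were added after the values were seen.

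Cells are not replicates, so counts were summed per litter, or per litter and skin type, and tested with edgeR 4.0.16 (filterByExpr, TMM, glmQLFit, glmQLFTest; R 4.3.3), Benjamini-Hochberg adjusted over all genes tested, with a threshold of 0.05. Skin contrasts had the litter as a block. Litters pair the skins because the labels name a shared litter; hairy and glabrous sums of a litter had correlations of their deviations of -0.08 to 0.26, and in 4 of 7 litters the best match of the hairy sum was the glabrous sum of that litter. The SE is the log2 change divided by the square root of F. In age contrasts the p-values measure the spread between litters, and in skin contrasts the spread of the difference within litters. Some sums hold a single cell, so differences between cells enter both. Exact intervals cover counting error only. Lists were described by counts and medians without a set test. Values of some listed relatives are not reported here. Alternatives were DESeq2 1.42.0, other normalization, filters, thresholds, plates and leaving out each litter. Skin fits by plate took whole litters, and litter K was counted with plate 2 although part of its glabrous cells lay on plate 1. The procedure was tested on simulated data. The cell labelled with both skins entered no skin comparison. Levels used pandas 2.3.3, numpy 2.4.6 and scipy 1.17.1, and plots matplotlib 3.10.9, under Python 3.11.15. Sequences and positions came from RefSeq (GRCm38.p6) and GENCODE vM21.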

Additional observations from a re-analysis of the deposited data

Results flagged for a closer look

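In 8 of 48 groups of 4 to 10 litters, 1 litter's summed level lay far from all others, by Dixon's gap criterion at the 95% level. Chance alone meets it in about 1 of 20 groups of independent, normally distributed values. The groups here overlap and their sums hold unlike numbers of cells, so the count of 8 cannot be set against that rate. Litter M accounted for 6 of these. Its glabrous sum is a single cell of the Tafa4-positive Nefh-low class, with 600.2 CPM Rasgrp1 (2.6 to 161 CPM in the 9 other litters), 614 CPM Acpp (11.47 to 169), 439.8 CPM Fxyd6 (5.5 to 105.4) and 1213 CPM Tmem72 (8.4 to 299.7). Its 2 hairy Nefh-high cells summed to 53.9 CPM Rasgrp1 (0 to 21.002 CPM in the 7 other litters) and 19.9 CPM Tmem45b (0 to 3.2), both from the cell with 242 CPM Mrgprd. In glabrous Nefh-high cells, litter O had 2.1 CPM Lox (0 to 0.87 CPM in the 8 other litters) and litter L had 43.98 CPM Tmem45b (0 to 21.2).

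The cell labelled with both skins, from litter A_B, was used in no skin comparison. Of its 797882 counts, 6 were Tmem45b (7.5 CPM) and 7 were Tmem72 (8.8 CPM), both above the 3 counts that a count of 0 allows.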

How the results depend on the processing

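Counts of called genes depended on tool and filter. Over all neurons, hairy against glabrous, edgeR called 12 genes, against 337 with DESeq2, 342 without the low-count filter, 0 to 15 with 1 litter left out, 11 without the litter block, 1 without the 25% of cells richest in non-neuronal RNA, 1 with single-cell sums admitted and 0 on either plate. In Nefh-high cells the 0 calls became 89 with DESeq2, 226 without the filter, 7 without the block, 0 to 2 with 1 litter left out and 46 among cells with Calca under 500 CPM (chosen after seeing the data). Without the class they became 52, 74 and, without the block, 2. By age, DESeq2 called 2 and the unfiltered fit 13 in hairy cells, and 13 and 11 in the class, where 1 gene was called among Mrgprd-negative cells (chosen after seeing the data). Members with an AUC of 0.9 or more within Nefh-low cells numbered 4, and 2 without the cells richest in non-neuronal RNA. Of 431 alternative log2 changes of members, 9 passed the threshold and 38 reversed; the smallest adjusted p among those 38 was 0.769, and causes were not tested. In Nefh-high cells, Acpp was 0.34 with Calca under 500 CPM; Fxyd6 was -0.14 without non-neuronal-rich cells, -0.87 on plate 1, -0.085 and -0.62 at Nefh thresholds of 250 and 1000 CPM, and -0.28 to 0.25 with 1 litter left out; Tmem72 was 0.34 on plate 1 and 0.16 with 2 cells per sum. Without the class, Rasgrp1 was 0.72 without cells under 10000 genes, 1.08 without non-neuronal-rich cells, 2.19 on plate 1, 0.19 at 200 CPM Tafa4 and -0.87 to 0.49 with 1 litter left out. Acpp was 0.45 without non-neuronal-rich cells, 0.97 on plate 1 and -0.59 to 0.31 with 1 litter left out, and Tmem72 1.35 on plate 1. By age in hairy cells, removing non-neuronal-rich cells gave -0.35 for Rasgrp1, -0.041 for Fxyd6, -0.0012 for Tmem45b and -0.38 for Tmem72; single-cell sums gave -0.13 for Rasgrp1 and -0.12 for Tmem72. With 1 litter left out the ranges were -0.27 to 0.30, -0.17 to 0.75 and -0.25 to 0.35 for Rasgrp1, Fxyd6 and Tmem72. By age in the class, Tmem45b was 0.042 on plate 2, 0.51 with 2 cells per sum, 0.14 in hairy cells and -0.60 to 0.51 with 1 litter left out.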
